A study of Mus musculus with 6 samples.

Results

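The 10 genes described here are factors, regulators and targets of the Hippo-YAP pathway, out of 50686 genes in the count files. They are the coactivator genes *Yap1* and *Wwtr1* (which encodes TAZ), the DNA-binding partner genes *Tead1* and *Tead2*, the regulators *Lats2*, *Ajuba* and *Amotl2*, and the target genes *Ccn1*, *Ccn2* and *Ankrd1*. The list was chosen by the RNASeq difference between the groups compared below, in which *Ccn2* was among the largest increases, so the RNASeq differences of all 10 genes are given as a description, without p-values. RNASeq was available from 2 cultures of control neural stem cells (NSC) and from 2 cultures labelled NSC Bmi1Over, and ChIPSeq for the repressive histone mark H3K27me3 from 1 library of each. The control cells came from wild-type embryos and the others from STOPFloxBmi1;NestinCre embryos, in which a *NestinCre* driver removes a stop cassette in front of a *Bmi1* transgene in neural precursors. Both kinds of culture were prepared from the subventricular zone of the cerebral hemispheres at E16.5. NSC were grown as neurospheres or as an adherent layer, and which of these forms gave the RNA is not given in the sources used here. The comparison asks how raised Bmi1, a Polycomb protein, changes transcription and H3K27me3 in non-neoplastic NSC. The tumour-initiating cultures of the series were not analysed here.

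The Hippo pathway is a kinase cascade in which the LATS kinases phosphorylate the coactivators YAP and TAZ and hold them out of the nucleus. When the cascade is inactive, for example in spread or stretched cells, YAP and TAZ enter the nucleus, bind the TEAD factors and raise transcription of genes such as *Ccn1* and *Ccn2*, which encode secreted matrix-associated proteins. In the developing brain YAP is known for its role in the expansion of neural progenitors. Because YAP and TAZ are controlled mainly at the protein level, by phosphorylation and localisation, the RNA of *Yap1* and *Wwtr1* does not measure their activity.

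Because TEAD factors recruit YAP to DNA, the promoters of these genes were searched for the core of the TEAD motif, CATTCC or GGAATG on the other strand. The sequences are RefSeq promoter windows of build GRCm38.p6, which run from 250 bases before to 50 bases after an annotated start. Of the 10 genes, 8 matched, with 10 windows, and *Ccn2* and *Tead1* were not matched. The motif stood in the windows of 7 of these 8 genes, all except *Tead2*. Among all genes with a window, 4481 of 27025 (16.6%) held it. The *Ccn1* and *Ajuba* sequences are shown in full over the 250 bases before the start, *Ccn1* for the single site of a target gene and *Ajuba* for a pair of sites close together. They run 5′ to 3′ on the gene's own strand, and capitals mark the motif. The *Ccn1* stretch is chr3:145649986-145650235 on the minus strand, with the motif 103 bases upstream of the start. The *Ajuba* stretch is chr14:54577662-54577911 on the minus strand, with the motif 186 and 164 bases upstream. Neither stretch overlaps an annotated exon.
Ccn1: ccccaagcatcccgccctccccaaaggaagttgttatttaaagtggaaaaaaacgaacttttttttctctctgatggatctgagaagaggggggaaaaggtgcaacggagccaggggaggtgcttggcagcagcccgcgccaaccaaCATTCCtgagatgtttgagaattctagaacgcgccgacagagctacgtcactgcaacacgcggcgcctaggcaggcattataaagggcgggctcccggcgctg
Ajuba: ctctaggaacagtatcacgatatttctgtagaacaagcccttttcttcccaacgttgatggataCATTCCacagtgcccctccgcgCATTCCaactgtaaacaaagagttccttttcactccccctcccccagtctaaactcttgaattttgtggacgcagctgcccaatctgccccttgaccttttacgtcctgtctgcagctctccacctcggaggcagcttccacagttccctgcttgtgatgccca

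The other sites are shown with 9 bases on either side, since they carry the same motif in another orientation or place.
Amotl2, 65 bases upstream: aaactctcaCATTCCtggcatagc
Yap1, 141 bases upstream: gagtctgcaGGAATGtagcgacgc
Wwtr1, 136 bases upstream of the first start: aaactcaaaGGAATGcagataggc
Lats2, 4 bases downstream of the first start: gacgcccgtGGAATGccaacaatg
Ankrd1, 210 bases upstream: actgccaaaGGAATGaccctctca
Ankrd1, 123 bases upstream: actaagtctGGAATGaaaattcac

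The sites of *Ccn1*, *Amotl2* and *Ajuba* read CATTCC on the gene's strand, and those of *Yap1*, *Wwtr1*, *Lats2* and *Ankrd1* read GGAATG. In GENCODE vM21 the sites of *Amotl2*, *Lats2* and *Ankrd1* lie within an exon of the gene itself. The *Wwtr1* site at chr3:57576041-57576046 lies in the windows of both its starts, 136 and 170 bases upstream. The second *Lats2* window held no motif. A match describes the letters in a window and was not tested for binding. For comparison, 3 of 11 matched genes of a wider YAP/TAZ target list and 8 of 20 matched Hippo regulators held the motif. The AP-1 motif (TGANTCA, which reads the same on the other strand) and the CArG box of SRF, both of which stand beside TEAD sites in other genes, were in none of the 10 windows, against 7.81% and 1.63% of all windows. The windows of the 8 genes were 42.7% to 74.0% G and C, with a median of 52.7% over all windows.

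**Figure D1:**
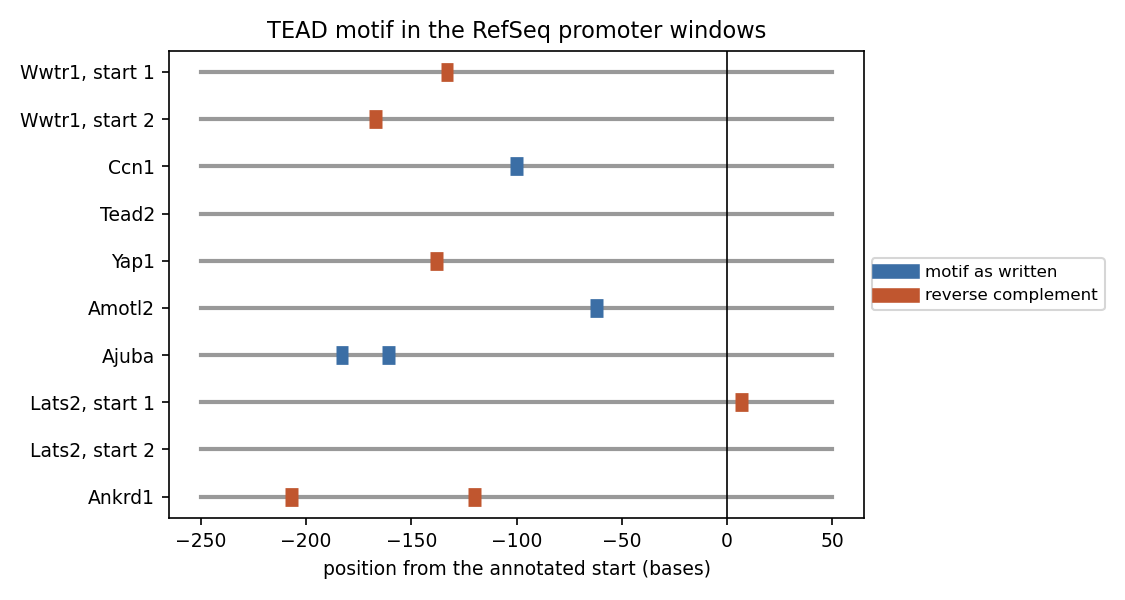
Position of the TEAD motif in the RefSeq promoter windows of 8 genes, in bases from the annotated start (vertical line), for 10 windows (grey bars). Blue boxes are the motif as written and red boxes its reverse complement, and the windows of *Tead2* and of the second *Lats2* start are empty.

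RNASeq reads counted on genes ranged from 18112100 to 61353076 per library, and 15521 genes had enough reads to be tested. Levels are given as CPM, counts scaled to the library size after normalisation by the trimmed mean of M-values (TMM), in the order of replicate 1 and replicate 2 of each group. The transgene's own gene, *Bmi1*, was at 133.3 and 123.5 CPM in NSC and at 118.6 and 112.6 CPM in the libraries labelled NSC Bmi1Over, a log2 difference of −0.15 (SE 0.12), so directions below rest on the labels. Whether reads of the transgene fall on the mouse gene was not tested. The share of reads left unmapped was higher in the libraries labelled NSC Bmi1Over (16.2% and 17.6%) than in NSC (11.2% and 13.7%), and its part in the differences was not tested. The 8 markers of neural stem cells summed to 5905 to 6616 CPM per library, most of it from *Slc1a3*, *Vim*, *Fabp7* and *Nes*, whereas *Hes5* (4.11 to 10.1 CPM) and *Prom1* (4.80 to 7.40 CPM) were low. None of the 8 was called by edgeR's quasi-likelihood test, beside 2.15% of all genes tested. At an unadjusted p under 0.05, 2 were lower, beside 24.2% of all genes, and DESeq2's Wald test called 1 higher, beside 9.64%. The groups did not overlap in 5 that were lower and 1 that was higher, beside 30% and 29% of all genes. Markers of oligodendrocytes summed to 8.23 to 15.6 CPM over 5 genes and those of erythroid cells to 0.400 to 0.602 CPM over 6 genes, with no read on 4 globin genes. The 7 neuronal markers summed to 927 to 1013 CPM, with overlapping groups, most of it from *Map2* (788 to 919 CPM). *Rbfox3* (1.38 to 1.94 CPM), *Neurod1* (0.507 to 1.14 CPM) and *Dcx* (3.83 to 10.2 CPM) were low. Of the 7, edgeR's test called 1, *Syt1* (log2 fold change 2.18), beside 2.15% of all genes. The 5 astrocytic markers summed to 210 and 166 CPM in NSC and to 157 and 156 CPM in the libraries labelled NSC Bmi1Over. DESeq2's Wald test called 1 of them lower, beside 9.64% of all genes, and edgeR's test called none, beside 2.15%. In edgeR's test 1 had an unadjusted p under 0.05, beside 24.2% of all genes. For groups of 2, the smallest two-sided p of an exact permutation test on 1 gene is 0.333.

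Among the factors, the 4 genes were expressed at similar levels in both groups. *Yap1* (ENSMUSG00000053110, chr9:7931999-8004596, minus strand), the main coactivator of the pathway, was at 97.6 and 87.3 CPM in NSC and at 98.3 and 70.9 CPM in the libraries labelled NSC Bmi1Over. The groups overlapped, as Bmi1Over replicate 1 was the highest library and Bmi1Over replicate 2 the lowest. The log2 fold change was −0.13 (SE 0.17), and it turned to 0.09 without Bmi1Over replicate 2. *Wwtr1* (ENSMUSG00000027803, chr3:57455649-57575910, minus strand), which encodes the coactivator TAZ, was at 74.4 and 59.3 CPM in NSC and at 65.0 and 47.3 CPM in the libraries labelled NSC Bmi1Over. Its highest library was in NSC and its lowest in Bmi1Over, with the middle values crossing. Its log2 fold change was −0.26 (SE 0.18), and with a library left out it ran from −0.50 (without Bmi1Over replicate 1) to −0.04 (without Bmi1Over replicate 2).

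*Tead1* and *Tead2* encode the factors through which YAP and TAZ reach DNA. *Tead1* (ENSMUSG00000055320, chr7:112679318-112906807, plus strand) was at 186.9 and 174.1 CPM in NSC and at 205.3 and 174.7 CPM in the libraries labelled NSC Bmi1Over. *Tead2* (ENSMUSG00000030796, chr7:45215753-45233644, plus strand) was at 105.4 and 101.7 CPM in NSC and at 121.0 and 96.3 CPM in the libraries labelled NSC Bmi1Over. In both genes Bmi1Over replicate 1 was the highest of the 4 libraries, and the groups overlapped. Both log2 fold changes were 0.07 (SE 0.14), and both fell below 0, to −0.05 for *Tead1* and −0.11 for *Tead2*, without Bmi1Over replicate 1. Scaling by library size alone, which moved the median of all genes from −0.01 to −0.17, also turned them, to −0.07 and −0.08.

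Levels per length (RPKM, the CPM divided by the merged exon length in kilobases) allow the genes to be set in order. *Tead2* stood above all the others, at 20.1 to 25.3 RPKM over the 4 libraries. *Tead1* (12.8 to 15.1 RPKM), *Wwtr1* (9.90 to 15.6 RPKM) and *Yap1* (7.66 to 10.6 RPKM) came next, and each of these ranges overlapped its neighbour. Within each library, however, *Yap1* was below *Wwtr1*, at a ratio of 0.677 and 0.760 in NSC and of 0.781 and 0.774 in the libraries labelled NSC Bmi1Over. The remaining genes lay lower, with *Ajuba* at 3.87 to 4.78 RPKM, *Amotl2* at 2.46 to 4.75 RPKM, *Ccn1* at 2.61 to 4.11 RPKM and *Lats2* at 3.03 to 3.41 RPKM. Each of these also overlapped its neighbour, but *Ajuba* lay above *Lats2* in every library. *Ccn2* spanned 0.155 to 3.34 RPKM over its full exon length, or 0.202 to 4.35 RPKM over the part that no other gene shares (described with its counts). The 4 TEAD genes together summed to 36.9 to 43.6 RPKM. *Tead2* made up 54.5% to 57.9% of that sum and *Tead1* 34.6% to 35.7%, whereas *Tead3* gave 6.14% to 8.93% and *Tead4* 1.03% to 1.62%. *Tead2* and *Tead1* thus led in all 4 libraries, in that order, and the shares of *Tead3* and *Tead4* were highest in Bmi1Over replicate 2.

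**Figure D2:**
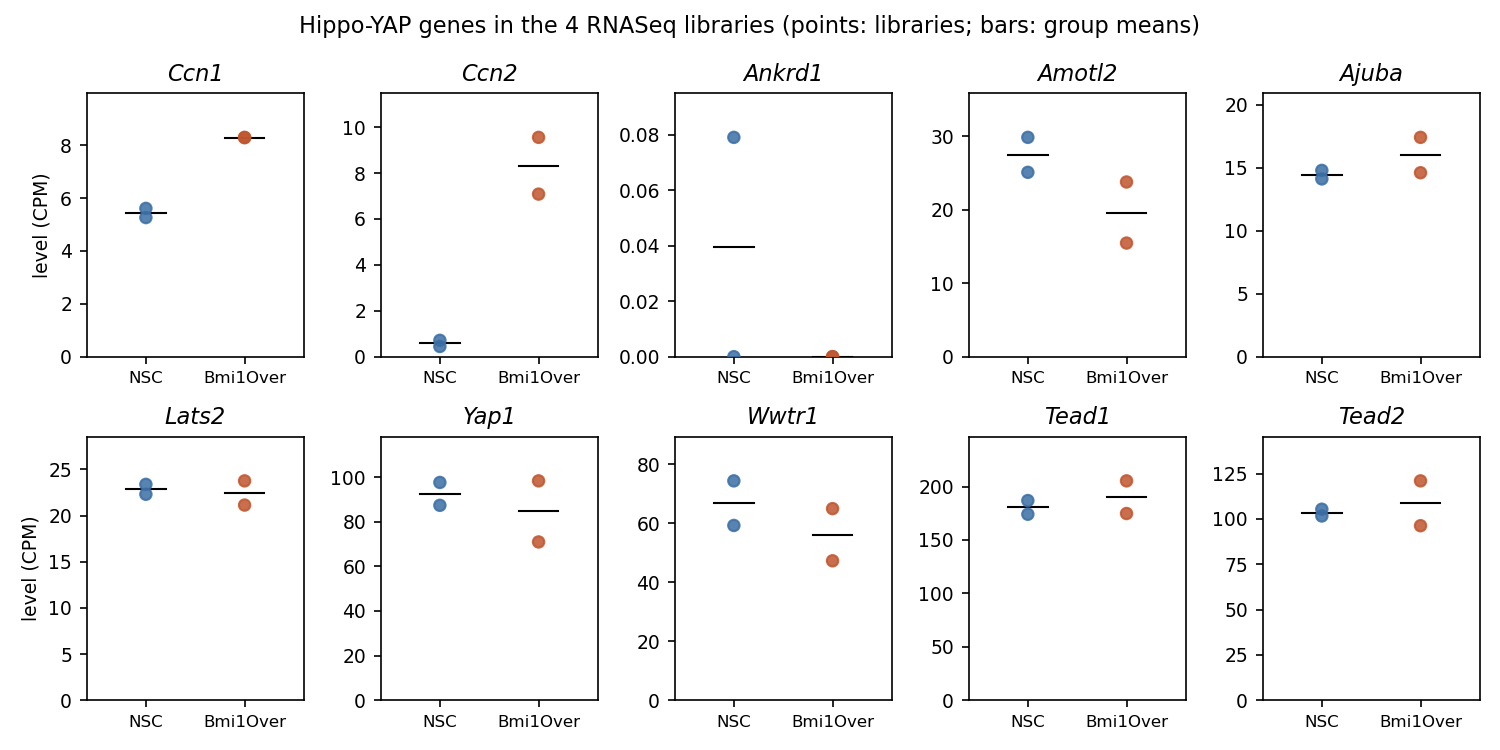
Level of each of the 10 genes in CPM (vertical axes from 0, a separate scale for each gene) in the 2 NSC and 2 NSC Bmi1Over libraries, with points for libraries and bars for group means. *Ccn1* and *Ccn2* lie higher in both Bmi1Over libraries, *Amotl2* lies lower in both, and the other tested genes overlap.

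*Lats2*, *Ajuba* and *Amotl2* act on YAP and are themselves known as its targets. *Lats2* (ENSMUSG00000021959, chr14:57689662-57758388, minus strand), a kinase that phosphorylates YAP and TAZ, was at 23.4 and 22.3 CPM in NSC and at 23.8 and 21.1 CPM in the libraries labelled NSC Bmi1Over. The NSC values lay between the Bmi1Over values, and the log2 fold change was −0.03 (SE 0.14). It was 0.06 without Bmi1Over replicate 2 and 0.0037 without NSC replicate 1. In GENCODE vM21, 42.4% of its exon length is shared with *Gm49361*, a gene model on the same strand that has no row in the count files. *Ajuba* (ENSMUSG00000022178, chr14:54567472-54577558, minus strand), a LIM-domain protein that binds and restrains LATS, was at 14.8 and 14.1 CPM in NSC and at 17.4 and 14.6 CPM in the libraries labelled NSC Bmi1Over. Only Bmi1Over replicate 1 stood above both NSC libraries, with a log2 fold change of 0.14 (SE 0.16), which was −0.01 when library size alone was used.

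*Amotl2* (ENSMUSG00000032531, chr9:102716672-102733418, plus strand), an angiomotin that binds YAP at junctions, was at 29.9 and 25.1 CPM in NSC and at 15.5 and 23.8 CPM in the libraries labelled NSC Bmi1Over. Both NSC libraries were above both Bmi1Over libraries, but NSC replicate 2 and Bmi1Over replicate 2 were close. The log2 fold change of −0.47 (SE 0.20) was −0.21 without Bmi1Over replicate 1 and −0.83 without Bmi1Over replicate 2, so its size rested on which of these libraries was kept.

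Of the target genes, *Ccn2* and *Ccn1* were higher in the libraries labelled NSC Bmi1Over, and *Ankrd1* was barely detected in any library. *Ccn2* (ENSMUSG00000019997, chr10:24595442-24598683, plus strand), which encodes connective tissue growth factor, had 14 and 18 reads in NSC, with exact Poisson 95% intervals of 7.65 to 23.5 and 10.7 to 28.4 reads. In the libraries labelled NSC Bmi1Over it had 124 and 546 reads, with intervals of 103.1 to 147.8 and 501.2 to 593.8 reads. These intervals cover counting error only. The levels were 0.444 and 0.712 CPM in NSC and 7.08 and 9.55 CPM in the libraries labelled NSC Bmi1Over. Both Bmi1Over libraries were thus far above both NSC libraries, with group means of 0.578 ± 0.190 CPM and 8.32 ± 1.75 CPM (SD, n = 2). The log2 fold change was 3.88 (SE 0.32), or 14.7-fold, the fourth largest of the 15521 genes tested. As the cultures were measured in bulk, more cells expressing *Ccn2* and more RNA per cell cannot be told apart.

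Of the exon length of *Ccn2*, 665 bp (23.2%) overlaps the antisense gene *Gm15270*, and reads there that matched both genes were left out of the unstranded count. *Gm15270* itself had 0 reads in 3 libraries and 2 reads in Bmi1Over replicate 2. When both strand columns were summed instead, *Ccn2* had 28 and 26 reads in NSC and 178 and 765 reads in the libraries labelled NSC Bmi1Over, a log2 fold change of 3.64. In the unstranded counts, the log2 fold change of 3.88 ranged from 3.55 to 4.23 without any one of the libraries. *Ccn2* is abundant in several cell types outside the neural lineage, so their markers were read in the same libraries. The 6 fibroblast markers summed to 1.49 and 1.50 CPM in NSC and to 1.83 and 0.962 CPM in the libraries labelled NSC Bmi1Over. The 6 markers of pericytes and smooth muscle summed to 0.634 and 0.356 CPM in NSC and to 1.26 and 0.822 CPM in the libraries labelled NSC Bmi1Over. The fibroblast sum overlapped between the groups, and the pericyte sum was higher in both Bmi1Over libraries. That pericyte sum rests on few reads. Only *Myh11*, with 7 to 22 reads per library, was tested, and it was not called. The other pericyte markers had 0 to 9 reads per library, and the groups overlapped in *Pdgfrb*, *Kcnj8* and *Des*. Sums over 3 other lists were also higher in both Bmi1Over libraries, as were 29% of all genes tested when taken singly. For 6 endothelial markers, with no read on *Cldn5*, the sums were 4.18 and 5.46 CPM in NSC and 6.17 and 7.65 CPM in Bmi1Over. Most of these sums came from *Kdr*, *Tek* and *Flt1*, as *Pecam1* had 1 to 24 reads per library, with overlapping groups, and *Cdh5* 0 to 4. The 6 microglial markers rested on *P2ry12*, at 1.27 and 1.74 CPM in NSC and at 2.23 and 2.96 CPM in Bmi1Over, as the other 5 had 0 to 5 reads per library. For 5 markers of megakaryocytes and platelets the sums were 3.11 and 4.59 CPM in NSC and 7.88 and 7.65 CPM in Bmi1Over. These sums rested mainly on *Itga2b* and *Pf4*, as *Ppbp* had 0 to 2 reads per library and *Gp9* 0 or 1. Of the 5, edgeR's test called *Pf4* higher (log2 fold change 2.68), beside 2.03% of all genes tested. The part of such cells in the level of *Ccn2* was not tested.

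*Ccn1* (ENSMUSG00000028195, chr3:145646976-145649981, minus strand), which encodes the related matricellular protein CYR61, had 177 and 133 reads in NSC and 145 and 474 reads in the libraries labelled NSC Bmi1Over. Scaled to depth, these were 5.61 and 5.26 CPM in NSC and 8.28 and 8.29 CPM in the libraries labelled NSC Bmi1Over. The groups did not overlap, and replicates of each group were close to each other. The log2 fold change was 0.61 (SE 0.19), or 1.52-fold, far smaller than that of *Ccn2* in the same libraries. Per length, *Ccn1* was 17.9 and 10.5 times as high as *Ccn2* in NSC but only 1.66 and 1.23 times as high in the libraries labelled NSC Bmi1Over. Over the 2196 bp of *Ccn2* exons that *Gm15270* does not share, the NSC ratios were 13.8 and 8.04, and those of the libraries labelled NSC Bmi1Over 1.27 and 0.944, so that in Bmi1Over replicate 2 *Ccn2* stood above *Ccn1*. *Ankrd1* (ENSMUSG00000024803, chr19:36111961-36120099, minus strand), which encodes a nuclear ankyrin-repeat protein best known in muscle, had 2 reads in NSC replicate 2 and none in the other libraries. Taking 3 reads as the floor that a count of 0 allows (the upper end of its exact two-sided Poisson interval is 3.69 reads), the limit was 0.0950 CPM in NSC replicate 1 and 0.171 and 0.0524 CPM in the libraries labelled NSC Bmi1Over. No difference was detectable at this depth.

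Of the 10 genes, 9 passed the filter on low counts, all except *Ankrd1*. The edgeR quasi-likelihood test called 1 of these, *Ccn2*, at an adjusted p under 0.05, beside 2.15% of all genes tested (334 of 15521), and nothing is read from this count because the contrast chose the list. Groups did not overlap in 3 of the 9 (*Ccn1* and *Ccn2* higher, *Amotl2* lower), beside 59% of all genes tested. The log2 fold change was above 0 in 5 genes and below 0 in 4, with a median of 0.07 against −0.01 over all genes tested.

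**Figure D3:**
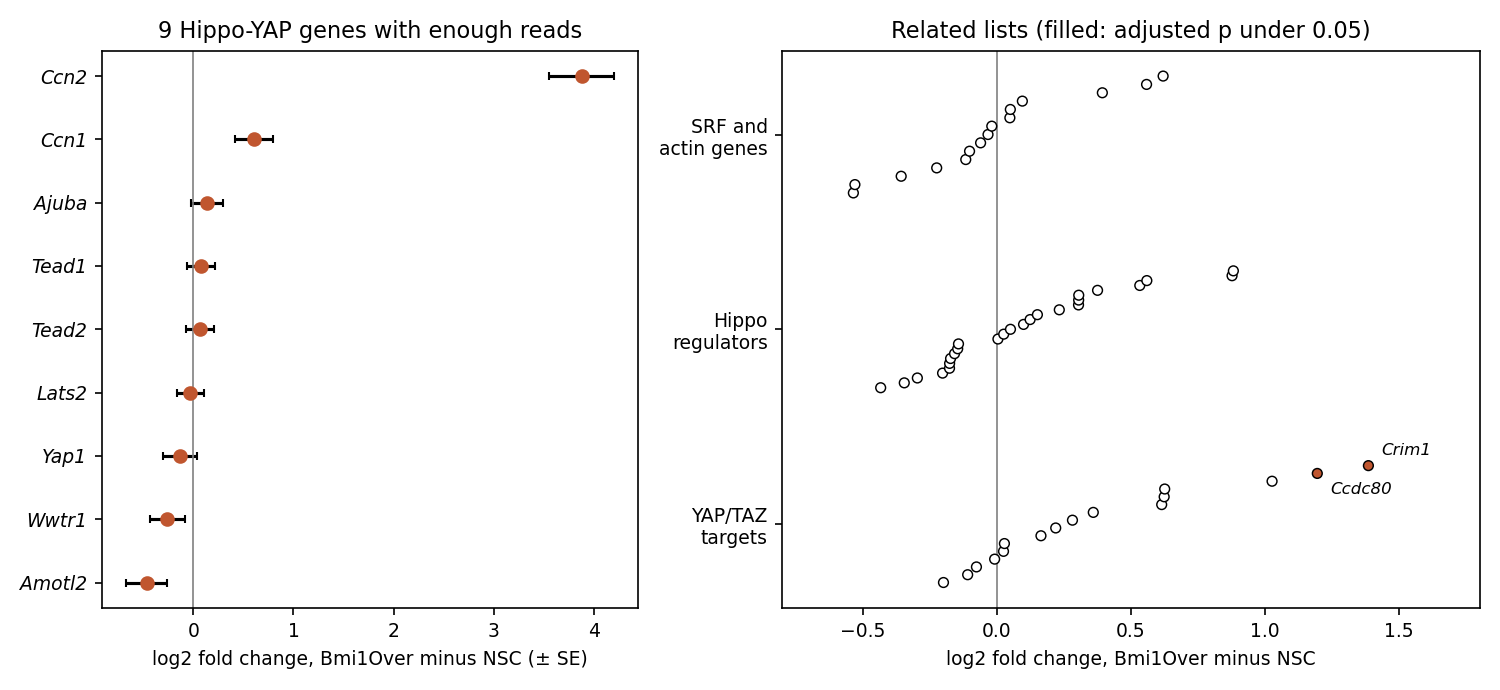
Left, log2 fold change between the libraries labelled NSC Bmi1Over and NSC with its SE for the 9 genes with enough reads, from −0.47 for *Amotl2* to 3.88 for *Ccn2*. Right, the log2 fold changes of 3 related gene lists, with filled points for the 2 genes called at an adjusted p under 0.05, *Crim1* and *Ccdc80*.

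The other genes of the pathway were read from lists of known members. In a list of 17 further YAP/TAZ target genes, 16 were tested, and 2 rose and none fell in edgeR's quasi-likelihood test, beside 2.03% of all genes called higher. At an unadjusted p under 0.05, 7 were higher and 0 lower, beside 24.2% of all genes in either direction, and DESeq2's Wald test called 5 higher and 0 lower, beside 9.64%. *Crim1*, a membrane protein that binds BMPs, was at 73.1 and 95.7 CPM in NSC and at 216.8 and 223.8 CPM in the libraries labelled NSC Bmi1Over. It rose by a log2 fold change of 1.38 (SE 0.16, edgeR adjusted p = 0.0084). *Ccdc80*, a secreted matrix protein, was at 6.12 and 8.62 CPM in NSC and at 16.6 and 17.0 CPM in the libraries labelled NSC Bmi1Over. It rose by 1.19 (SE 0.20, edgeR adjusted p = 0.037), but this call was lost without NSC replicate 1, when *Crim1* alone of the list was called.

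Among the remaining targets, *Igfbp3*, a secreted binding protein of insulin-like growth factors and the most abundant of the list per length, was at 301.0 and 428.7 RPKM in NSC and at 704.4 and 781.1 RPKM in the libraries labelled NSC Bmi1Over. Its log2 fold change of 1.03 (SE 0.24) did not pass (edgeR adjusted p = 0.062). *Fjx1*, next in level, was at 33.7 and 42.8 RPKM in NSC and at 56.0 and 61.9 RPKM in the libraries labelled NSC Bmi1Over, with a log2 fold change of 0.63 (SE 0.15, edgeR adjusted p = 0.068). Over the 16 genes, the log2 fold change was above 0 in 12, with a median of 0.25, and the groups did not overlap in 9 genes that were higher and 1 that was lower, beside 29% and 30% of all genes tested. *Foxf2*, the untested gene, had no read in NSC and 1 read in each of the libraries labelled NSC Bmi1Over.

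Of 25 Hippo regulators and further TEAD cofactors, all tested, none passed edgeR's quasi-likelihood test (2.15% of all genes did), whereas 5 higher and 2 lower genes had an unadjusted p under 0.05, beside 24.2% of all genes. DESeq2's Wald test called 3 of them higher (*Fat1*, *Fat4* and *Dchs1*, atypical cadherins) and 1 lower (*Vgll4*, which competes with YAP for TEAD), beside 9.64% of all genes. *Dchs1* was at 147.9 and 206.1 CPM in NSC and at 286.5 and 362.8 CPM in the libraries labelled NSC Bmi1Over, with a log2 fold change of 0.88 (SE 0.20, edgeR adjusted p = 0.058). The most abundant of the list per length was the kinase gene *Map4k4*, at 91.4 and 92.8 RPKM in NSC and at 88.6 and 74.8 RPKM in the libraries labelled NSC Bmi1Over. *Fat1* followed at 46.6 and 55.7 RPKM in NSC and at 66.8 and 81.2 RPKM in the libraries labelled NSC Bmi1Over. *Wwc1*, the gene of the scaffold KIBRA, was even, between 33.1 and 34.9 RPKM in all 4 libraries. The median log2 fold change of the list was 0.05, and 15 of 25 genes were above 0. The groups did not overlap in 10 genes that were higher and 10 that were lower, beside 29% and 30% of all genes tested.

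The SRF and actin genes, which share targets such as *Ccn1* and *Ccn2* with YAP, were also read. Of 17 genes, 15 were tested and none passed edgeR's quasi-likelihood test, beside 2.15% of all genes. At an unadjusted p under 0.05, 3 were higher and 1 lower, beside 24.2% of all genes. DESeq2's Wald test called *Flna* and *Vcl* higher and *Egr1* lower, beside 9.64% of all genes. The actin genes *Actb* and *Actg1*, the most abundant of the list, overlapped or lay close together between groups. *Actb* was at 513.5 and 526.1 RPKM in NSC and at 459.6 and 508.9 RPKM in the libraries labelled NSC Bmi1Over. *Actg1* was between 245.7 and 270.1 RPKM in all libraries. The actin crosslinker gene *Flna* was at 52.6 and 74.4 RPKM in NSC and at 95.8 and 99.3 RPKM in the libraries labelled NSC Bmi1Over, with a log2 fold change of 0.62 (SE 0.20, edgeR adjusted p = 0.119). The median of the 15 was −0.03. The groups did not overlap in 3 that were higher and 3 that were lower, beside 29% and 30% of all genes tested.

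The other 4 genes of the CCN family were low. *Ccn6* was at 0.502 to 1.12 RPKM over the 4 libraries, with overlapping groups and a log2 fold change of 0.31 (SE 0.41, edgeR adjusted p = 0.660). *Ccn3*, *Ccn4* and *Ccn5* had too few reads to be tested, and *Ccn4* was at 0.017 to 0.072 RPKM and *Ccn3* at 0 to 0.043 RPKM. Among the CCN genes, *Ccn1* and *Ccn2* were thus the most abundant per length in the libraries labelled NSC Bmi1Over, whereas in NSC *Ccn6* (0.983 and 0.502 RPKM) stood above *Ccn2* (0.155 and 0.249 RPKM).

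The genes whose pattern over the 4 libraries was most like that of *Ccn2*, by the Euclidean distance of their log2 CPM centred on each gene's mean, were *Gm26736* (1.01), *Srpx2* (1.03), *Ecm2* (1.03), *Pth2r* (1.11) and *Gm37602* (1.13). *Ecm2*, an extracellular matrix protein, was the best covered of these, with 148 and 181 reads in NSC, at 4.69 and 7.16 CPM in NSC and at 40.7 and 42.4 CPM in the libraries labelled NSC Bmi1Over. Its log2 fold change was 2.82 (SE 0.20). The others had 1 to 6 reads in each NSC library and 7 to 94 reads in each of the libraries labelled NSC Bmi1Over, so their likeness rests on few reads.

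H3K27me3, deposited by Polycomb complexes at silenced genes, was a readout that the choice of the genes did not use. Genes with a broad peak no further than 5 kb from an annotated transcription start were taken as marked. In NSC, 1 of the 10 genes was marked, *Tead2*, beside 8.86% of protein-coding genes (1944 of 21951). In NSC Bmi1Over 0 of 10 were marked, beside 4.39% (963 of 21951). The *Tead2* peak (chr7:45210618-45210817) was 200 bp long, the shortest length in the list, and lay 4936 bp from the nearest start, with a 3.91-fold enrichment and a q-value of 2.46 on the −log10 scale. It was near the lowest values in the NSC list, a fold of 3.52 and a −log10 q of 1.77, and was not counted with a window of 1 kb or with stricter limits on fold, q or length.

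No peak of either list overlapped any of the 10 genes. In NSC the nearest peak of the other 9 genes lay between 59.5 kb (*Ankrd1*) and 2690 kb (*Ccn1*) from a start. In NSC Bmi1Over the distances ran from 36.1 kb (*Tead2*) to 4927 kb (*Yap1*). *Ccn2*, with the largest difference in RNA, had its nearest peak 1247 kb away in NSC and 1249 kb away in NSC Bmi1Over. *Ankrd1*, with 2 reads in all, had its nearest peak 59.5 kb and 63.2 kb away. Neither gene therefore had a peak at its promoter in either list. Of the related lists, none of the 25 regulators was marked, and *Foxf2* of the targets and *Ccn3* of the CCN family were marked in both lists. The *Ccn3* peak of NSC Bmi1Over was 200 bp long and lay 4354 bp from the start. Its fold of 4.28 and −log10 q of 2.32 were near the lowest values of that list, 4.03 and 1.96. With 1 ChIPSeq library per condition, these differences have no replicate check and were not tested, and distances in NSC Bmi1Over come from a shorter list of 6810 peaks against 12982 in NSC.

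**Figure D4:**
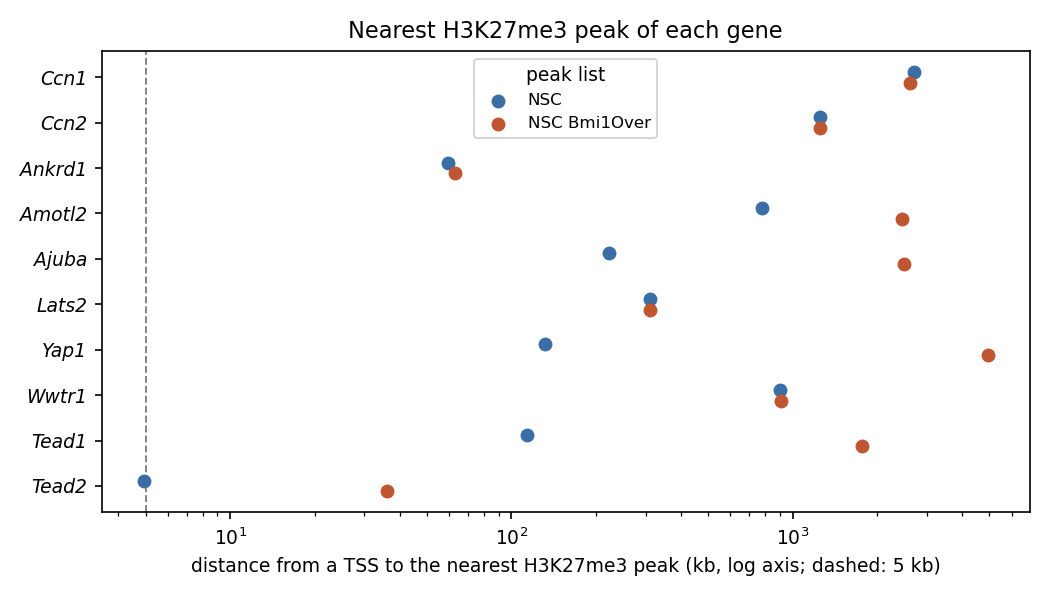
Distance from the nearest start site of each of the 10 genes to the nearest H3K27me3 peak in kb (log axis), in the NSC list (blue) and the NSC Bmi1Over list (red). The dashed line marks 5 kb, and the *Tead2* point of NSC, at 4936 bp, is the only one inside it.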

How the data were processed

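RNASeq counts were analysed for 2 NSC and 2 NSC Bmi1Over cultures, and H3K27me3 peaks for 1 ChIPSeq library of each. The authors deposited raw RNASeq counts per gene, made with STAR on mm10 after trimming by Trim Galore. Unstranded counts were used, and 27.8% to 34.1% of reads, which were on no gene, on several or unmapped, were left out. For ChIPSeq the authors aligned reads with Bowtie2 2.3.4 (per the labels) and called broad peaks per library with MACS2. The deposited lists give each peak's p-value and q-value as −log10, and its fold enrichment (a ratio to background). The study gives read totals for 2 ChIPSeq replicates per condition and kept 1 per condition on read number, quality and fingerprint plots, without naming it, so the depth behind each list was not used.

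Of 50686 gene identifiers, 50376 matched GENCODE vM21. The counts were fitted with edgeR 4.0.16 in R 4.3.3, using TMM and the quasi-likelihood F-test, which the study's methods name. The filter on low counts (filterByExpr, in place of the study's NOISeq filtering) and the design without a replicate term were chosen here. A gene was called when its p, adjusted over all 15521 genes by the Benjamini-Hochberg method, was under 0.05. The biological coefficient of variation was 12.9%. Log2 CPM used a prior count of 0.5. The fit was tested on simulated data. Peaks and RefSeq promoter windows were read in Python 3.11.15, with an overlap of at least 1 bp.

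The genes and lists were chosen with earlier results of these data known. Named genes were the 10 members, *Bmi1*, genes of the 4 pathway lists that were called, the 3 most abundant per length of each list, and the 5 genes most like *Ccn2*. Others, named where a count or marker list turned on them, were chosen after their values were seen. Alternatives were DESeq2 1.42.0 (Wald test, size factors), library size alone, other filters, summed strand columns, protein-coding genes, a replicate block, leaving out each library, and other peak limits.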

Additional observations from a re-analysis of the deposited data

How the results depend on the processing

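The log2 fold change of *Ccn2* stayed between 3.64 and 3.89 under the 8 other settings and between 3.55 and 4.23 with each library left out. The counts of listed genes called depended more on the setting. YAP/TAZ targets went from 2 to 5 with DESeq2's Wald test, to 5 with no filter beyond 1 read and to between 1 and 6 with a library left out, the lowest without NSC replicate 1. Hippo regulators went from 0 to 2 with library size alone, 4 with DESeq2's Wald test, 5 with no filter and 0 to 2 with a library left out, 2 without NSC replicate 2 and 1 without Bmi1Over replicate 1. SRF and actin genes went from 0 to 1 with library size alone, 3 with DESeq2's Wald test, 3 with no filter, 1 with summed strand columns and 0 to 1 with a library left out, the highest without Bmi1Over replicate 2. The cause was not tested. Over all genes, 334 calls became 1496 with DESeq2's Wald test, 2356 of 28541 with no filter, 537 with library size alone and 176 to 2546 with a library left out, when the lone library of its group is assumed to vary like the other group.

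With the replicate number as a block, 7 targets, 8 regulators, 4 SRF and actin genes and 3459 genes in all were called, and *Ccn2* was at 3.85. The replicate numbers of the groups share nothing in the labels but the number, and same-numbered libraries deviated with a correlation of 0.16 over genes, from 2 pairs. The single gene with a promoter peak in NSC, *Tead2*, became 0 with a window of 1 kb, a −log10 q of at least 3, a fold of at least 5 or a peak of at least 1000 bp. Among single genes, scaling by library size alone turned *Ajuba*, *Tead1* and *Tead2* to −0.01, −0.07 and −0.08 and lowered *Ccn1* to 0.46, and leaving out a library turned *Lats2*, *Yap1*, *Tead1* and *Tead2*. With 2 cultures per group and 14 and 18 reads in NSC, the size of the *Ccn2* difference is limited by the low NSC counts.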
